A study of Homo sapiens with 2 samples.

Results

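Growth factor receptor genes were examined on mRNA arrays of Hep3B cells, a human hepatocellular carcinoma (HCC) cell line. The 10 genes were the receptors EGFR, ERBB2, ERBB3, MET, FGFR4, IGF1R and INSR, the ligand FGF19, the co-receptor KLB and the docking protein GAB1. They were chosen by gene symbol from the annotation of the array. All 10 genes had a named probe, with 18 probes between them, among 29187 probes and 18821 named genes in all. Of the 10 genes, 3 were read by 1 probe, 6 by 2 probes and 1 by 3 probes.

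RNA was compared between Hep3B cells given an inhibitor of miR-19b (anti-miR-19b, labeled as a miR-19b knockdown) and Hep3B cells transfected with the control. Both oligonucleotides were delivered by lipofection at 90 pmol a well, and the RNA was taken 24 h later. There was 1 array per condition on Human OneArray and no replicate, so no test could be made, and every value below describes these 2 arrays. The design text of the series speaks of miR-19b where both the series title and the sample labels name its inhibition, and the labels were followed here. The array reads mRNA in 1 dye and does not read mature miR-19b.

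Receptor tyrosine kinases sit in the cell membrane, bind a growth factor outside the cell and phosphorylate tyrosines inside it. Docking proteins gather on these tyrosines and pass the signal to the RAS-ERK and PI3K-AKT chains, which drive growth and survival. In the liver, EGFR and MET take part in regeneration, INSR controls glucose and lipid metabolism, and FGF19 acts through FGFR4 and its co-receptor KLB to restrain bile acid synthesis.

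The inhibited microRNA and its closest relative are shown because both carry the same seed, the part of a microRNA that pairs with target mRNAs. The sequences are those of RefSeq (GRCh38.p14), written 5′ to 3′, with the seed (bases 2 to 8) in capitals.
hsa-miR-19b-3p: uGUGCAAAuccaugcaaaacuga
hsa-miR-19a-3p: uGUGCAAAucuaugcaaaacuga
Counted from the 5′ end, miR-19b and miR-19a differ by C11U, outside the seed. One of the 2 copies of miR-19b lies at chr13:91351245-91351267 on the plus strand, near miR-19a at chr13:91350939-91350961, and the other lies at chrX:134169683-134169705 on the minus strand. Neither mature microRNA was measured on these arrays.

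Values were the normalized intensities deposited for each probe. The log2 ratio compares cells given the inhibitor with control cells (above 0 where the inhibitor array was higher), and it could be taken for the 26186 probes above 0 on both arrays, all 18 probes of the growth factor receptor genes among them. Probes whose mean level over both arrays reached the median of all such probes, 41.4 in intensity, are called bright and the others dim. With no replicate error to set beside it, each ratio was given its percentile among the 500 probes of nearest level, and the distance from percentile 16 to percentile 84 of those probes, divided by 2, is given as the local spread, which measures differences among probes and not among cultures. Over all bright probes this spread was 0.26, and over all dim probes it was 0.87. Each ratio compares a probe with itself on the other array, since probes differ in how strongly they bind.

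Liver markers were mostly bright. Of 11 probes for ALB, AFP, APOA1, APOA2, TTR, SERPINA1, FGB and GPC3, 10 were bright. The summed intensity of all 11 was 85397 in control cells and 99630 with the inhibitor. Of the 11, 1 was over 1.5-fold higher, that of APOA2 (14603 in control cells and 32084 with the inhibitor). This probe alone rose by more than the sum did, and the median log2 ratio of the 11 was 0.03. The 13 probes for markers of blood, endothelial, stromal and bile duct cells summed to 695 in control cells and 598 with the inhibitor. Of the 13, 3 were bright, those of CD68 (418 in control cells and 353 with the inhibitor), CD14 (135 and 118) and COL1A1 (61.4 and 56.6). Among the others, 1 KRT7 and 1 PTPRC probe were below 0 on the anti-miR-19b array. The part of either marker list in the results below was not tested.

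At the brightest probe of each gene, all 10 genes were within 1.5-fold between the arrays. Over the 12 bright probes, which read 9 of the 10 genes, the median log2 ratio was 0.01, beside 0.03 over all 13093 bright probes. One of the 12, a second probe of MET, was over 1.5-fold higher with anti-miR-19b and none was over 1.5-fold lower. By comparison, 2.41% of all bright probes were over 1.5-fold higher and 1.05% were lower, or 3.47% either way. After quantile normalization, or with the loess trend taken out, the higher calls among all bright probes went from 69.6% of the calls to 55.7% or 55.2%. Of the 6 dim probes of these genes, 4 were over 1.5-fold higher and none was lower, beside 25.1% and 22.9% of all dim probes, or 48.0% either way. Together, 5 of the 18 probes were over 1.5-fold higher and 0 lower, and over all probes compared these shares were 13.8% and 12.0%, or 25.7% either way. All 4 dim probes and the MET probe were within 1.5-fold once an offset of 50 was added to the intensities.

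**Figure D1:**
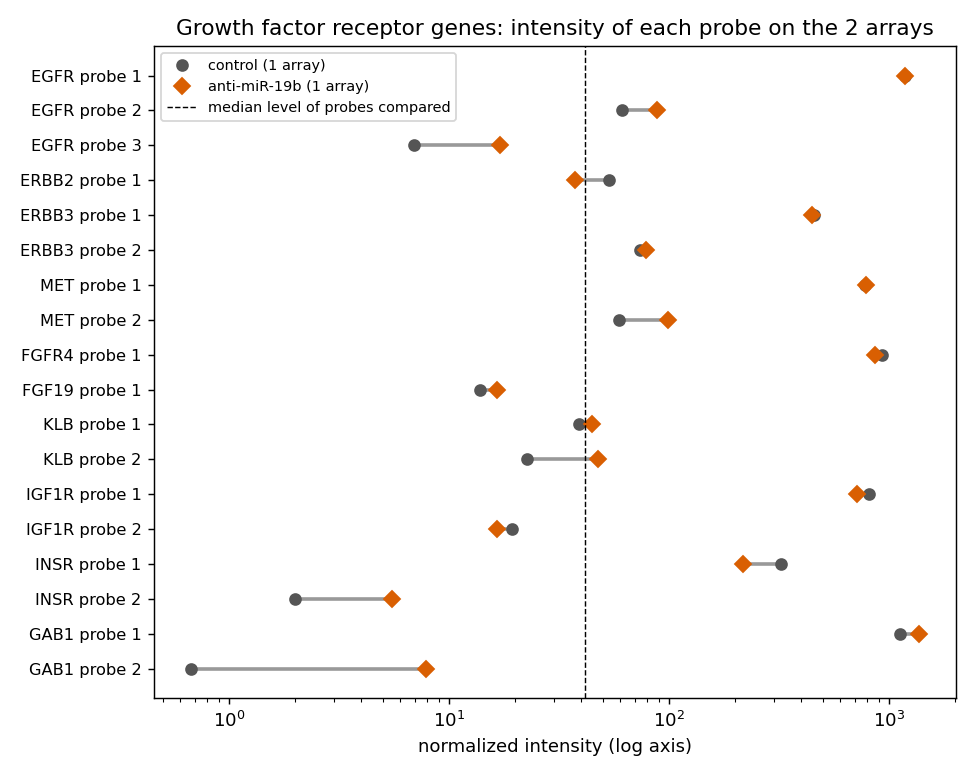
Normalized intensity (log axis) of each of the 18 probes of the growth factor receptor genes, on the control array (circles) and the anti-miR-19b array (diamonds), with probes of a gene numbered from the brightest and a dashed line at the median level of 41.4. The brightest probes of EGFR, MET and ERBB3 nearly overlap, while INSR probe 1 lies lower and GAB1 probe 1 higher on the anti-miR-19b array.

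EGFR, the receptor for epidermal growth factor and its relatives, was read by 3 probes. The brightest gave an intensity of 1183 in control cells and 1190 with the inhibitor. The second gave 61.5 and 88.4, and the third gave 6.96 and 17.2. The probes therefore did not give one answer for the gene. Their log2 ratios were 0.01 (percentile 47.6 of probes of like level, local spread 0.24), 0.52 (percentile 95.2, spread 0.26) and 1.30 (percentile 98.4, spread 0.62). The brightest probe was at the middle of its neighbors, and the third was over 1.5-fold higher at a dim level, by 10.2 intensity units.

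ERBB2, the partner of the other ERBB receptors that has no ligand of its own, was read by 1 probe close to the limit between bright and dim. It gave 53.6 in control cells and 37.3 with the inhibitor. The log2 ratio was -0.52, at percentile 7.8, with a local spread of 0.42. ERBB2 was thus lower with anti-miR-19b by less than 1.5-fold, though it passed that limit with quantile normalization (-0.61) and with the loess trend removed (-0.60). In a bulk sample, fewer cells that carry a transcript and less transcript per cell cannot be told apart.

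ERBB3, whose kinase is weak and which signals mainly with ERBB2 or EGFR, was the steadiest gene with a pair of bright probes. One probe gave 456 in control cells and 445 with the inhibitor, and the other gave 74.3 and 78.7. The log2 ratios were -0.03 (percentile 41.4) and 0.08 (percentile 62.8), both smaller than the local spreads of 0.23 and 0.26.

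MET, the receptor for hepatocyte growth factor (HGF), gave 782 in control cells and 785 with the inhibitor at its brightest probe. The second probe gave 59.2 and 98.7. Both probes were bright, and they differed in their log2 ratio, with 0.01 at percentile 50 and 0.74 at percentile 98.8. The second MET probe was the only bright probe of the 12 over 1.5-fold, 1.67 times as high with anti-miR-19b, at nearly 3 times (2.89) the local spread of 0.26 from the median of its neighbors. Its ratio was 0.45, within 1.5-fold, with an offset of 50. The brightest probe of MET and that of EGFR differed between arrays by 3.44 and 6.67 intensity units.

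FGF19, a hormone of the intestine that is made by some liver cancers, was the only gene of the 10 with no bright probe. It gave 13.9 in control cells and 16.5 with the inhibitor, a log2 ratio of 0.24 at percentile 65.0 with a local spread of 0.54. A difference of this size was smaller than the spread of probes of like level. FGFR4, its receptor in hepatocytes, gave 936 and 862, with a log2 ratio of -0.12 at percentile 34.4 and a local spread of 0.22.

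KLB, or beta-klotho, the membrane protein that lets FGFR4 bind FGF19, had a pair of probes near the limit between bright and dim. The first gave 39.2 in control cells and 44.6 with the inhibitor, and the second gave 22.8 and 47.8. The second probe was over 1.5-fold higher (log2 ratio 1.07, percentile 96.0) and the first was not (0.19, percentile 54.2). The local spreads there were 0.53 and 0.47, so that only the second probe stood apart from its neighbors. On the scale with an offset of 50 the second probe gave 0.43.

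IGF1R, the receptor for insulin-like growth factors, gave 811 in control cells and 717 with the inhibitor at its bright probe, and 19.3 and 16.6 at its dim probe. Both were slightly lower with anti-miR-19b, with log2 ratios of -0.18 (percentile 22.8) and -0.22 (percentile 30.0), each smaller than its local spread (0.23 and 0.48). IGF1R was the only gene of the 7 with several probes in which the dimmer probe did not have the higher ratio.

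INSR, the insulin receptor, is the closest relative of IGF1R. Its bright probe gave 325 in control cells and 218 with the inhibitor. The log2 ratio was -0.57, at percentile 1 of the probes of like level, with a local spread of 0.25. INSR thus had the lowest ratio of the 18 probes, a fold difference of 1.49, just within 1.5-fold. It passed 1.5-fold after median centring (-0.60), after quantile normalization (-0.61) and with the loess trend removed (-0.62), and not with an offset of 50 (-0.48). The study had listed INSR among its lower genes from these same arrays, past the fold threshold on its own ratio scale. The rank of INSR here is therefore no independent evidence of a direction. That list also gave a P-value for INSR, from a test that the methods of the study do not name for these arrays. The dim INSR probe went the other way at values near 0, with 2.01 and 5.49 (log2 ratio 1.45, percentile 78.8). The local spread at that level was 1.65, so that this log2 ratio, from a difference of 3.48 intensity units, was smaller than the local spread.

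GAB1, the docking protein that carries signals from MET and EGFR to the phosphatase PTPN11 and to PI3K, was bright at one probe, with 1120 in control cells and 1373 with the inhibitor. The log2 ratio was 0.29, at percentile 86.4 with a local spread of 0.23, and it kept its size in all settings tried (0.27 to 0.29). The other probe gave 0.670 and 7.92, near the floor of the array. Its log2 ratio of 3.56 lay at percentile 98.6, where the local spread was 2.13, and it became 0.19 with the offset.

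**Figure D2:**
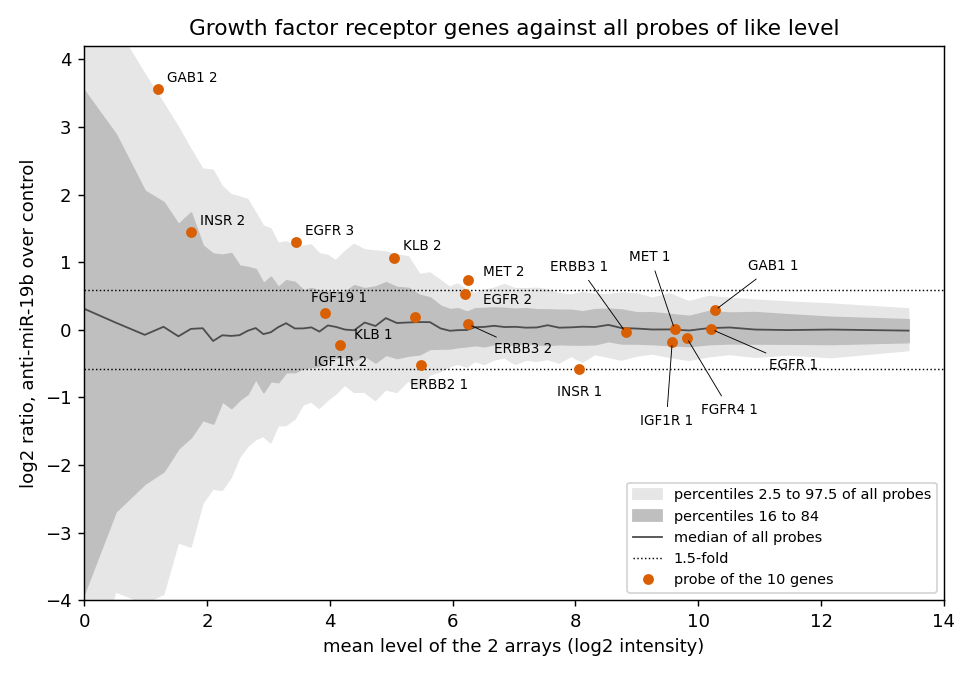
Log2 ratio (anti-miR-19b over control) of the 18 probes of the growth factor receptor genes against mean level (log2 intensity), with a dark gray band for percentiles 16 to 84 of all probes of like level, a lighter one for a wider range of percentiles and dotted lines at 1.5-fold. The bands widen toward dim levels, where GAB1 probe 2 (3.56), INSR probe 2 (1.45) and EGFR probe 3 (1.30) lie, while INSR probe 1 (-0.57) lies below the narrow band of brighter probes.

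Across the 12 bright probes, 7 lay within 1 local spread of the median of their neighbors. The other 5 were INSR (lower), ERBB2 (lower), the second probes of EGFR and MET (higher) and GAB1 (higher). The 7 probes at or above an intensity of 200 on both arrays ranged from -0.57 (INSR) to 0.29 (GAB1), with a median of -0.03. In 6 of the 7 genes with several probes the dimmest probe had a higher ratio than the brightest, and over all 4564 such genes this was so in 55.1%. The median gap between these probes was 0.88 in the growth factor receptor genes and 0.43 over all such genes. The gaps of GAB1 and INSR rest on a dim probe near the floor, where the local spreads were 2.13 and 1.65. In the 3 genes with a pair of bright probes, the gap between these was 0.73 in MET, 0.52 in EGFR and 0.12 in ERBB3. The median gap was 0.23 over all 1795 genes with several bright probes. The dimmer bright probe had the higher ratio in all 3 genes, and the dimmest did in 58.9% of the 1795.

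**Figure D3:**
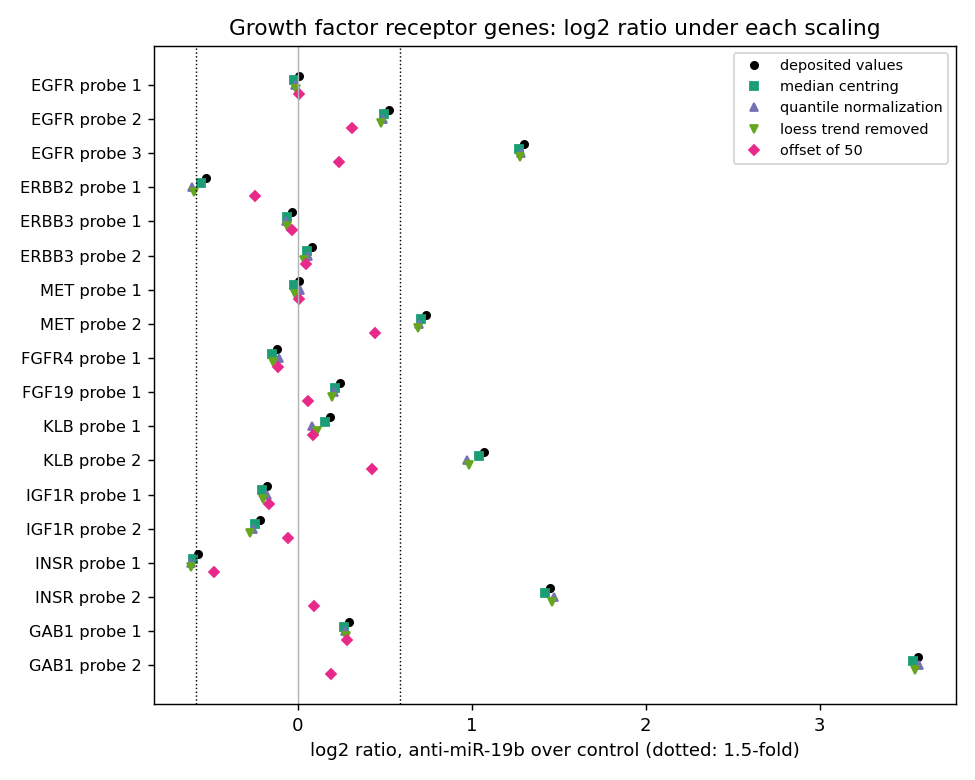
Log2 ratio (anti-miR-19b over control) of the 18 probes of the growth factor receptor genes from the deposited values, with median centring, quantile normalization, the loess trend removed and an offset of 50, with dotted lines at 1.5-fold. The scalings move INSR probe 1 and ERBB2 across the lower line, and the offset brings all 5 higher probes inside the upper line.

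The genes around these receptors were taken from 14 lists of ligands, partners and target genes, some of which share members. Of 242 genes, 219 had a named probe. Among their 146 bright probes, 3 were over 1.5-fold higher with anti-miR-19b (FGF17, SPRY2 and EPS15), 1 was lower (SLC51A) and 142 were within 1.5-fold, beside 2.41% and 1.05% of all bright probes. Their median log2 ratio was 0.0037, beside 0.03 over all bright probes, and 53.9% of all bright probes were above 0, to be set beside each count above 0 that follows.

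Most probes of the ligand lists were dim. Among the ERBB ligands, 6 bright probes had a median of 0.03 and all were within 1.5-fold, from NRG1, a ligand of ERBB3 (79.6 in control cells and 74.1 with the inhibitor, log2 ratio -0.10), to HBEGF, a ligand of EGFR (143 and 158, 0.15). The list of HGF, its activating proteases and their inhibitors also held MST1 and MST1R. It had 5 bright probes, MST1 probes among them, with a median of -0.28, and 1 of the 5 was above 0. MST1, a relative of HGF that binds the MET-related receptor MST1R, gave 4568 and 3203 at one probe (log2 ratio -0.51, percentile 0.200) and 5550 and 4565 at the other (-0.28, percentile 6.80). MST1 has a near-identical pseudogene, from which these probes may not tell it apart. HGF itself gave 366 and 303 at its bright probe (-0.28, percentile 9.80), and the protease HPN gave 378 and 346 at its own (-0.13). SPINT2, an inhibitor of the HGF-activating proteases, gave 95.5 and 121 (0.34). All 5 bright probes were within 1.5-fold, so the lower side among them rests on values smaller than the threshold. Of the 8 dim probes of this list, 5 were over 1.5-fold lower and 1 was over 1.5-fold higher. Over all dim probes these shares were 22.9% and 25.1%.

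The FGF ligands and other FGF receptors had 5 bright probes, with a median of -0.13. FGF17 was over 1.5-fold higher, with 52.7 in control cells and 82.1 with the inhibitor (log2 ratio 0.64, percentile 96.8). FGFRL1, an FGF receptor that lacks a kinase domain, was lower at both bright probes, with 151 and 107 (-0.51, percentile 2.20) and with 353 and 274 (-0.37, percentile 3.00). Both FGFRL1 probes were within 1.5-fold and were the lowest of the list.

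Among insulin, the insulin-like growth factors and their binding proteins, 6 of 7 bright probes were above 0 and the median was 0.23. Their highest was IGF1 (56.1 in control cells and 75.0 with the inhibitor, log2 ratio 0.42) and the lowest was the probe annotated to INS (217 and 169, -0.36). IGFBP3, the main carrier of these factors in blood, gave 3959 and 4869 at one probe (0.30, percentile 93.0) and 11288 and 13198 at the other (0.23, percentile 91.4). All 7 were within 1.5-fold.

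Other receptor tyrosine kinases were bright at 14 probes, all within 1.5-fold, with a median of -0.07. The highest was RYK, a Wnt co-receptor, at one of its probes (150 in control cells and 184 with the inhibitor, 0.30), and the lowest was TYRO3, of the AXL family (645 and 507, -0.35, percentile 2.40). None of these other receptors was bright and over 1.5-fold in either direction.

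Inside the cell, adaptors and docking proteins other than GAB1 were bright at 18 probes, of which 7 were above 0 and all were within 1.5-fold, with a median of -0.18. The highest was SOS1, which activates RAS, at one probe (96.4 in control cells and 132 with the inhibitor, 0.45), while its other bright probe gave -0.03. The lowest was GRB14, an inhibitor of the insulin receptor (1127 and 865, -0.38, percentile 5.80). The adaptors GRB2 (1830 and 1478, -0.31, percentile 5) and SHC1 (4427 and 3698, -0.26, percentile 9.40) were lower as well by less than 1.5-fold. PTPN11, the phosphatase that binds GAB1, gave 2422 and 2697 (0.16, percentile 77.2). GAB1 and its partners thus did not share one side of 0.

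The PI3K-AKT-mTOR chain had 22 bright probes, all within 1.5-fold, with a median of -0.03, from MTOR (1190 in control cells and 923 with the inhibitor, -0.37) to PDPK1, which activates AKT (158 and 207, 0.39). In the RAS-ERK chain 6 bright probes had a median of -0.07, from RRAS (92.3 and 71.4, -0.37) to ARAF (195 and 233, 0.26). No bright probe of either chain was over 1.5-fold.

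Negative regulators of the receptors had 21 bright probes with a median of 0.10, of which 16 were above 0. SPRY2, an inhibitor of ERK signaling, was over 1.5-fold higher at a probe just inside the bright range (38.2 in control cells and 61.7 with the inhibitor, log2 ratio 0.69, percentile 94.4). The lowest was SPRED3 (77.1 and 65.8, -0.23). Of the genes that take receptors into the cell and sort them, 24 bright probes had a median of 0.0049. EPS15, an adaptor of EGFR endocytosis, was over 1.5-fold higher at one probe (166 and 295, 0.83, percentile 99.8) and gave 110 and 127 (0.21, percentile 71.2) at the other. EPS15 was picked by the study from these arrays. HGS, which sorts receptors for degradation, was the lowest of that list (1191 and 895, -0.41, percentile 3.60).

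Genes known to be induced by ERK signaling are read here as a list of targets. Of 9 bright probes 3 were above 0, with a median of -0.18, and SPRY2, described above, was the one over 1.5-fold. ETV5, a transcription factor induced by ERK, was lower at both probes by less than 1.5-fold, with 5868 in control cells and 4170 with the inhibitor (log2 ratio -0.49, percentile 0.400) and with 1456 and 1079 (-0.43, percentile 1.60). Its relative ETV4 gave 976 and 859 (-0.18, percentile 21.6). CCND1, which encodes cyclin D1, gave 2423 and 1819 (-0.41, percentile 2.60). Besides SPRY2, the probes above 0 were DUSP4 (407 and 445, 0.13) and PHLDA1 at one probe (41.0 and 50.9, 0.31). The brighter PHLDA1 probe gave 324 and 280 (-0.21). The targets therefore lay on both sides of 0, with 6 of the 9 bright probes below.

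Of the liver genes that respond to insulin or to FOXO1, 8 bright probes had a median of 0.02, with 4 above 0. The lowest was SREBF1, a regulator of lipid synthesis (59.2 in control cells and 53.2 with the inhibitor, -0.15). The highest was TXNIP (82.6 and 100.2, 0.28). IGFBP1 (0.23), PCK1 (0.16) and IRS2 (0.14) were also above 0. PPARGC1A (-0.14), TRIB3 (-0.13) and another SREBF1 probe (-0.10) were below. This list was not sorted by direction of response, so its median does not measure a response. The bile acid genes that respond to FGF19 or to the bile acid receptor FXR were bright at only 3 probes. NR0B2, a repressor of bile acid synthesis, gave 2208 and 2167 (-0.03). SLC51A, a subunit of a bile acid exporter, was over 1.5-fold lower (67.8 and 26.1, -1.38, percentile 0.800), while its partner subunit SLC51B gave 189 and 198 (0.07, percentile 50.6). SLC51A was picked by the study from these arrays. Of the genes near FGF19 on chromosome 11, 6 bright probes had a median of 0.02, from CCND1 to FADD, an adaptor of death receptors (633 and 928, 0.55, percentile 98.4).

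**Figure D4:**
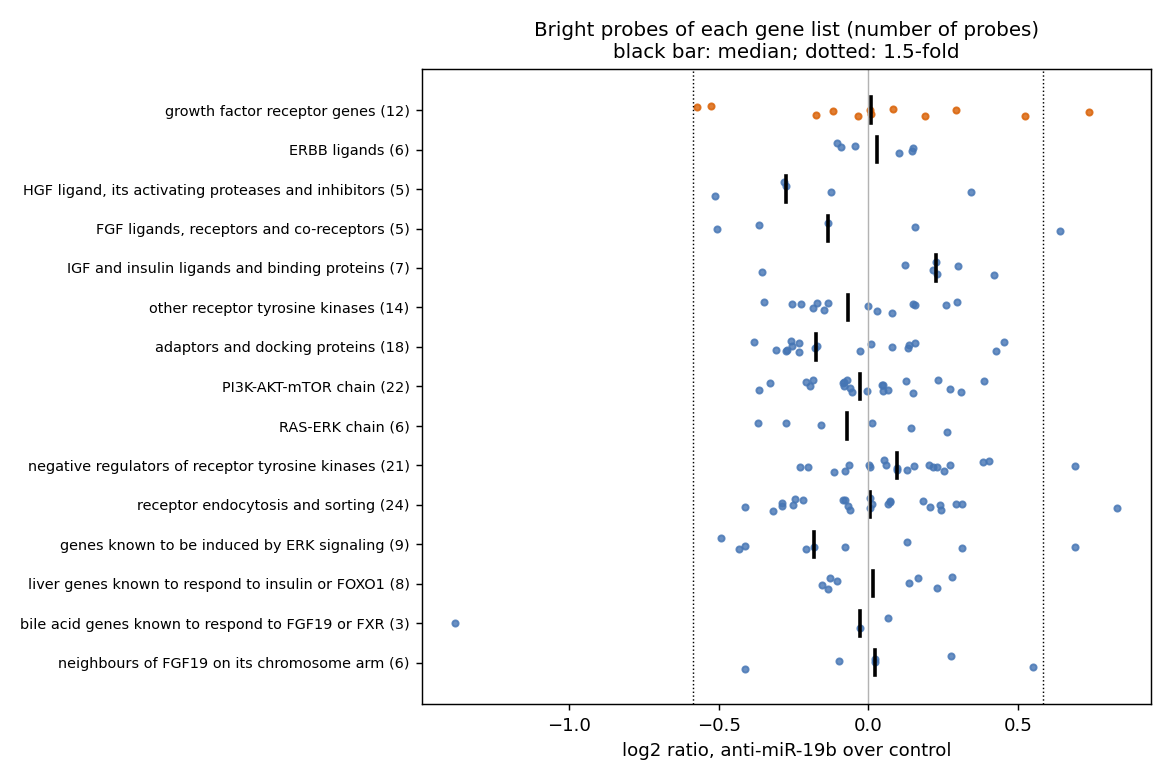
Log2 ratio (anti-miR-19b over control) of each bright probe of the growth factor receptor genes and of 14 related gene lists, with the number of probes in brackets, a black bar at the median and dotted lines at 1.5-fold. List medians run from -0.28 (HGF list, which includes MST1) to 0.23 (insulin-like growth factor list), and few probes lie outside 1.5-fold.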

How the data were processed

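RNA from Hep3B cells was labeled by the authors with 1 dye, hybridized to Human OneArray, scanned and quantified. The labels give Cy5 and the methods give fluorescein. For each array the deposited table holds 1 intensity for every probe, normalized by the authors and linear, with some values below 0. How the values were normalized, which probes were called detected and how many spots were averaged are points not given in the sources used here. With so few arrays, their number limits precision.

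Of 29187 probes, 25053 carried 1 gene symbol in the platform annotation, 0 several and 4134 none. Symbols were updated by gene identifier (24981 found in RefSeq, GRCh38.p14, names only), which changed none of the 10 genes.

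Log2 ratios were computed for 26186 probes above 0 on both arrays, and 3001 were left out. Percentiles used the 500 nearest probes in mean log2 level, and counts used 1.5-fold. The rule named every probe of the 10 genes and, in each related list, the bright probe with the highest and that with the lowest ratio. Any other gene or probe was picked with its value in view. The genes and lists were chosen with earlier results of these data known. Alternatives were median centring, quantile normalization, removal of a loess trend (fraction 0.3), an offset of 50, a 2-fold threshold, bright probes, the brightest probe per gene, a floor of 1 and windows of 200 or 1000 probes. The ranking code was checked on simulated data. The changes planted there were larger than any ratio at a bright probe of the 10 genes. The check therefore does not bear on ratios of the size seen at those probes. Python 3.11.15, numpy 2.4.6, pandas 2.3.3, statsmodels 0.14.6 and matplotlib 3.10.9 were used.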

Additional observations from a re-analysis of the deposited data

How the results depend on the processing

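No paired analysis was possible because there was a single array of each condition, and for the same reason no array could be left out. The 5 higher probes of the growth factor receptor genes were 0 with an offset of 50, 1 over bright probes alone and 0 with 1 probe per gene, the brightest. The 1 higher bright probe was 0 with the offset and 0 at a 2-fold threshold. The lower probes, all bright, went from 0 to 1 with median centring, 2 with quantile normalization and 2 with the loess trend removed (INSR, then INSR and ERBB2). The median over the 18 probes went from 0.13 to 0.0072 over bright probes and -0.014 at the brightest probe of each gene. Of 146 bright probes of the related lists, the 3 higher ones were 1 with the offset. The offset shrinks ratios of dim probes by construction. Median centring, quantile normalization and the loess trend moved each of the 18 log2 ratios by less than its local spread, and the offset moved 4 by more (the third EGFR probe to 0.24, and the second probes of MET, KLB and GAB1). Windows of 200 or 1000 probes moved all 18 percentiles by at most 5 points. Low signal limits FGF19, KLB, ERBB2 and the dim probes most.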

Other observations

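Deposited values of dim probes came in steps. Among dim probes, 95.8% in control cells and 95.4% with the inhibitor held exactly the same value as at least one other probe of that array, and among bright probes 23.2% and 21.7% did. The dim INSR probe shared its control value of 2.01 with 53 other probes and its value of 5.49 on the anti-miR-19b array with 55. The dim GAB1 probe shared its values of 0.670 and 7.92 with 42 and 29 others, the dim EGFR probe its values with 34 and 6, and the FGF19 probe its values with 18 and 16. The brightest probes of EGFR, ERBB3, MET, FGFR4, IGF1R, INSR and GAB1 shared a value with 0 other probes on either array. What set these steps was not tested.

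MIR17HG, the precursor RNA from which miR-19a and a copy of miR-19b are cut, gave 434 in control cells and 763 with the inhibitor (log2 ratio 0.81), and the study had picked it from these same arrays. None of the 10 growth factor receptor genes had a bright probe with so high a ratio, the nearest being the second probe of MET at 0.74. Since MIR17HG was picked with its high ratio known, this order says nothing about the 10 genes.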
